A study of Homo sapiens with 4 samples.

Results

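The microRNAs (miRNAs) described here, hsa-miR-21, hsa-miR-221, hsa-miR-222, hsa-miR-181a, hsa-miR-181c and hsa-miR-32, have been linked to multiple myeloma and were followed in RPMI8226 cells and in exosomes, small released vesicles, precipitated from the culture medium. They are 6 of the 377 human miRNA assays on the TaqMan array card, chosen by name, with results of these data already known. All 6 gave a threshold cycle (Ct) under 35 in each of the 4 samples, as did 138 of the 377 assays. A Ct is the PCR cycle at which the signal crosses a threshold, so a lower Ct stands for more template, and 1 cycle for a 2-fold difference at full efficiency. The highest Ct in the data is 35, which was read as not detected.

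RPMI8226 is an established human plasma-cell myeloma line, so each value describes 1 line. The groups were cells kept for 24 h at 20% oxygen (normoxia), cells kept for 24 h at 1% oxygen (hypoxia), and the exosome fraction of the medium under either condition. All were grown in AIM-V medium. The exosome fraction was precipitated with a polymer reagent from cleared and filtered medium, which does not separate vesicles from other particles, and its products alone were pre-amplified. Each group is 1 sample with 1 well per miRNA, so no comparison has a replicate error and none was tested. Separate cultures behind the samples are not stated in the labels.

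A miRNA guides a silencing complex to messenger RNAs, mainly by pairing of its seed, bases 2 to 8 from its 5′ end, so miRNAs with the same seed are expected to share many targets. miR-21 is among the miRNAs most often raised in tumours; it represses the tumour suppressor PDCD4, and in myeloma cells its gene is a target of STAT3 downstream of interleukin-6. miR-221 and miR-222 repress the cell-cycle inhibitor CDKN1B (p27). The miR-181 family acts in lymphocyte development, and miR-181a and miR-32 have been reported as raised in myeloma and as repressors of PCAF, a co-activator of p53.

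The mature sequences are shown because the comparisons among these miRNAs follow their shared seeds. They come from RefSeq (GRCh38.p14), with the seed in capitals, for the 6 miRNAs and for 3 other assays on the card that share a seed with one of them and were detected. The card names give no arm except for miR-590-5p, and the arm used is the guide strand that carried the unsuffixed name.
miR-21: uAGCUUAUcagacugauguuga
miR-590-5p: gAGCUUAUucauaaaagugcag
miR-221: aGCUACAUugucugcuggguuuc
miR-222: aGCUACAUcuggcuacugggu
miR-181a: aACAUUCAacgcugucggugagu
miR-181c: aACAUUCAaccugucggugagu
miR-32: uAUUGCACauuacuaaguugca
miR-25: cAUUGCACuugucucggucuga
miR-92a: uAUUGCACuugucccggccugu

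The 6 miRNAs thus fall into 4 seed groups. miR-221 and miR-222 are identical over their first 8 bases and are neighbours on chromosome X, inside the host transcript MIR222HG. miR-181a and miR-181c are closer still, with 23 and 22 bases, of which the first 10 and the last 12 are identical. Whether an assay for one of this pair also reads the other was not tested. The same mature miR-181a comes from 2 genes, MIR181A1 on chromosome 1 and MIR181A2 on chromosome 9, which one assay cannot tell apart, while miR-181c comes from MIR181C on chromosome 19. MIR21 lies within VMP1 on chromosome 17 and MIR32 within TMEM245 on chromosome 9. The seed of miR-32 is also carried by miR-25, miR-92a, miR-363 and miR-367, of which miR-363 and miR-367 stood at Ct 35 in all 4 samples.

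The control RNAs and the series as a whole bear on these values as follows. Between 155 and 162 assays were under Ct 35 in the cell samples and between 219 and 221 in the exosome samples, and the median Ct over the 138 shared assays was 30.91 and 30.97 in cells and 23.96 and 23.99 in the exosome fraction. U6, the normalizer of the cells, differed by 0.01 cycles between the cell samples in its mean over 4 wells, and ath-miR159, the spike-in that normalizes the exosome fraction, by 0.05 cycles between the exosome samples. The pooled SD of the U6 wells was 0.137 cycles (n = 4 wells in each of 2 samples), which gives 0.194 cycles for a difference between 2 single wells. This describes an abundant RNA within a card and is a lower guide for the weaker assays. miR-210, the best known hypoxia-induced miRNA, had Ct 30.998 in normoxic and 27.441 in hypoxic cells. In the exosome fraction it differed far less, with 23.993 in normoxia and 23.657 in hypoxia. All 5 blood and lymphoid marker miRNAs were detected in every sample. In normoxic and hypoxic cells miR-142-3p had Ct 24.95 and 24.97, miR-146a 25.95 and 25.71, and miR-150 29.82 and 28.96. The weaker ones there were miR-155 (31.67 and 30.97) and miR-142-5p (31.79 and 31.97). The liver marker miR-122 stood at 35 in all 4. Of the red cell markers, miR-486-5p stood at 35 in all 4 and miR-451 was seen only in the normoxic exosome fraction, at 33.19. The myeloid marker miR-223 (31.71 and 31.94 in cells) and the endothelial marker miR-126 (25.98 and 25.97 in cells) were detected in all 4 samples. Of the epithelial markers, miR-205 was detected in all 4 (33.10 and 33.98 in cells, 26.96 and 26.97 in the exosome fraction), miR-200c in the cell samples alone (32.82 and 32.99) and miR-141 in the exosome samples alone (30.98 and 30.12). The muscle marker miR-1 was seen in the exosome samples alone (33.09 and 32.14), and miR-133a there (27.94 and 28.07) and in hypoxic cells (32.96). The part of these marker miRNAs in the results was not tested.

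miR-222 had the lowest Ct of the 6 miRNAs in every sample, at 24.91 in normoxic and 24.61 in hypoxic cells, and at 17.51 (normoxia) and 17.93 (hypoxia) in the exosome fraction. By Ct it ranked 10 of 162 detected assays in normoxic and 9 of 155 in hypoxic cells, and 7 of 221 and 8 of 219 in the exosome samples. Assays can differ in PCR efficiency, so a rank between assays is approximate. It thus lay within the first 6.17% of detected assays in each sample.

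miR-21 came next in every sample. Its Ct was 27.75 in normoxic and 27.98 in hypoxic cells, and 19.97 (normoxia) and 19.76 (hypoxia) in the exosome fraction. It ranked 31 and 34 in cells and 17 in both exosome samples, so its place among the detected assays was higher in the exosome fraction (the first 7.69% and 7.76%) than in cells (19.1% and 21.9%). The number of detected assays differs between the compartments, and over the 138 shared assays its ranks were 29 and 33 in cells and 17 and 16 in the exosome fraction.

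miR-221 and miR-181a lay within 1.01 cycles of each other in every sample. miR-221 ranked 77 of 162 and 101 of 155 in cells, and 63 of 221 and 60 of 219 in the exosome samples. The ranks of miR-181a were 82 and 70 in cells, and 56 and 62 in the exosome samples. Both thus stood near the middle in cells (45.2% to 65.2% of detected assays) and within the first 28.5% in the exosome fraction. miR-221 had a Ct of 30.95 in normoxic and 31.97 in hypoxic cells, and of 23.76 (normoxia) and 23.96 (hypoxia) in the exosome fraction. miR-181a had 31.20, 30.97, 23.12 and 23.96 in the same samples, in that order. Their order changed between samples: miR-221 was ahead by 0.25 cycles in normoxic cells and by 0.01 cycles in the hypoxic exosome fraction, and behind by 1.01 and 0.64 cycles in hypoxic cells and the normoxic exosome fraction. The gaps of 0.25 and 0.01 cycles are within 2 SD of a difference between wells (0.388 cycles), so these neighbours cannot be ordered there. Every other gap between neighbours among the 6 was larger than that in each sample. The 0.388 cycles come from U6 wells in cells and hold neither assay efficiency nor the spread of exosome wells. A larger gap therefore does not settle the order of different assays.

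The weaker miRNAs were miR-181c and miR-32. miR-181c stood at Ct 32.22 in normoxic and 32.93 in hypoxic cells, and at 24.99 (normoxia) and 25.31 (hypoxia) in the exosome fraction, next to last of the 6 throughout. miR-32 was last in all 4, at 34.96, 33.61, 28.98 and 29.00. In normoxic cells it was 0.04 cycles from the ceiling and ranked 156 of 162, so its cellular level there is at the limit of detection. In the exosome fraction it was well under the ceiling and ranked 143 of 221 and 145 of 219.

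**Figure D1:**
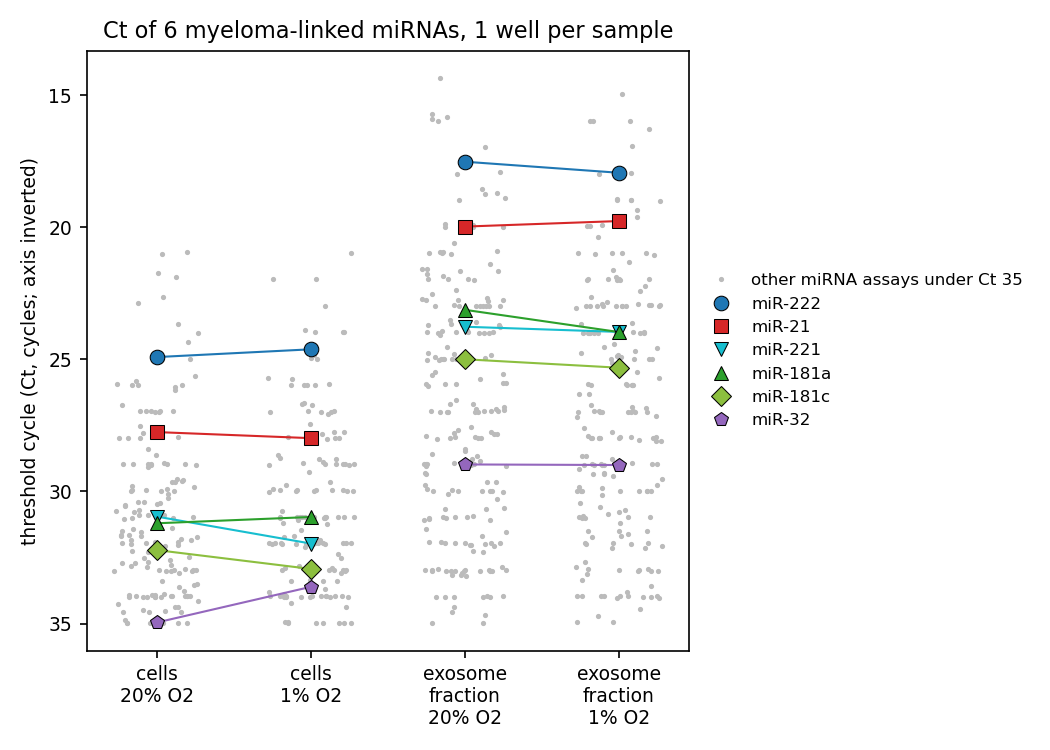
Ct of the 6 miRNAs (coloured symbols, 1 well per sample) among all other miRNA assays with a Ct under 35 (grey points) in the 4 samples; the vertical axis is in cycles and inverted, so higher points mean more template, and lines join the oxygen conditions of a compartment. miR-222 and miR-21 lead in all 4 samples and miR-32 is last, at 34.96 in normoxic cells; only the exosome products were pre-amplified, so Ct values are not comparable between the compartments.

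Hypoxia against normoxia was compared first in cells, as log2 changes normalized to U6. Of the 6 miRNAs, 1 was at least 2-fold higher (miR-32), 1 at least 2-fold lower (miR-221), and 4 lay within 2-fold. Among the 147 assays detected in both cell samples, 7.48% were that much higher and 6.12% that much lower. The median log2 change of the 6 was -0.00093, and that of the 147 was 0.03.

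miR-32 was 2.54-fold higher in hypoxic cells, a log2 change of 1.34, the fourth highest of 147. The change runs from a Ct of 34.96, next to the ceiling, to 33.61. The 29 other assays compared were detected in both cell samples, with a mean Ct within 1 cycle of its own. Their changes ranged from -2.11 to 2.13, and 8 were past 2-fold in either direction. Changes at least as large as that of miR-32 in size were found for 3 of the 29. Assays at 35 in either cell sample enter neither the 147 nor this count, nor the similar counts below. Some of similar Ct moved further than miR-32, such as miR-455-3p (35 to 32.36 in hypoxia), miR-107 (35 to 33.10) and miR-331-5p (33.37 to 35). The place of miR-32 is therefore among assays detected in both samples only.

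miR-221 was 2.04-fold lower in hypoxic cells, a log2 change of -1.03, the eighth lowest of 147. The Ct moved from 30.95 to 31.97. Of the 42 other assays within 1 cycle of its mean Ct, 6 were past 2-fold and 6 had a change at least as large. With the median Ct of each cell sample as normalizer its change was -0.999, just short of 2-fold, and without 1 of the 4 U6 wells it was -0.97.

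miR-222, which has the same seed and lies beside miR-221, had a log2 change of 0.29 in cells (1.22-fold in hypoxia over normoxia). The Ct gap between miR-221 and miR-222, which no normalizer affects, widened from 6.04 cycles in normoxic to 7.36 cycles in hypoxic cells. In the exosome fraction it was 6.25 and 6.03 cycles. Hypoxic cells thus held the widest gap of the 4 samples, and the other 3 lay within 0.22 cycles of each other.

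The miR-181 pair also separated in hypoxic cells. miR-181a had a log2 change of 0.23 (1.18-fold) and miR-181c one of -0.72 (1.65-fold lower), the thirteenth lowest of 147. The Ct gap of miR-181c to miR-181a was 1.02 cycles in normoxic and 1.97 in hypoxic cells, and 1.87 (normoxia) and 1.35 (hypoxia) in the exosome fraction. It was thus wider in hypoxia in cells and, by 0.52 cycles, narrower in hypoxia in the exosome fraction. Of 34 other assays within 1 cycle of the mean Ct of miR-181c in cells, 13 had a difference at least as large.

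The miRNAs of lowest Ct, miR-222 and miR-21, stayed close to the assays of similar Ct. miR-21 had a log2 change of -0.24 in cells (1.18-fold lower in hypoxia), and 5 of the 15 assays of similar Ct had one as large or larger. Across those 15 the values ran from -0.47 to 0.39. For miR-222 there were 6 assays of similar Ct, from -0.31 to 0.38, of which 2 were at least as large in size.

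In the exosome fraction, with the spike-in as normalizer, none of the 6 miRNAs was past 2-fold in either direction, against 7.39% of the 203 assays detected in both exosome samples. Among the other assays within 1 cycle of the mean Ct of any of the 6 (3 to 37 per miRNA), none was past 2-fold either. The log2 changes of the 6 ran from -0.79 to 0.26 with a median of -0.20, and the median of the 203 was -0.07. miR-181a had the lowest value, -0.79 (1.73-fold lower in hypoxia, Ct 23.12 to 23.96), the eleventh lowest of 203. None of the 37 other assays within 1 cycle of its mean Ct had as large a difference in either direction; they ran from -0.55 to 0.39. miR-222 had -0.37 (1.29-fold lower), and only 3 assays lay within 1 cycle of it, from -0.01 to 0.11. miR-181c had -0.27 and miR-221 had -0.14.

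On the higher side in the exosome fraction, miR-21 had a log2 change of 0.26 (1.20-fold in hypoxia over normoxia), and 4 of 8 assays of similar Ct had one at least as large. miR-32 had 0.03, and its Ct values of 28.98 and 29.00 differed by 0.02 cycles. The signs of miR-221 and miR-32 depend on the normalizer here: miR-221 was at 0.06 with the median Ct as normalizer, and miR-32 at -0.02 with none. The authors' deposited table gives ratios of hypoxia over normoxia for the 6 miRNAs in both compartments, 0.579 for miR-181a in the exosome fraction among them, and the values here differ from it by at most 0.000135 on the log2 scale.

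**Figure D2:**
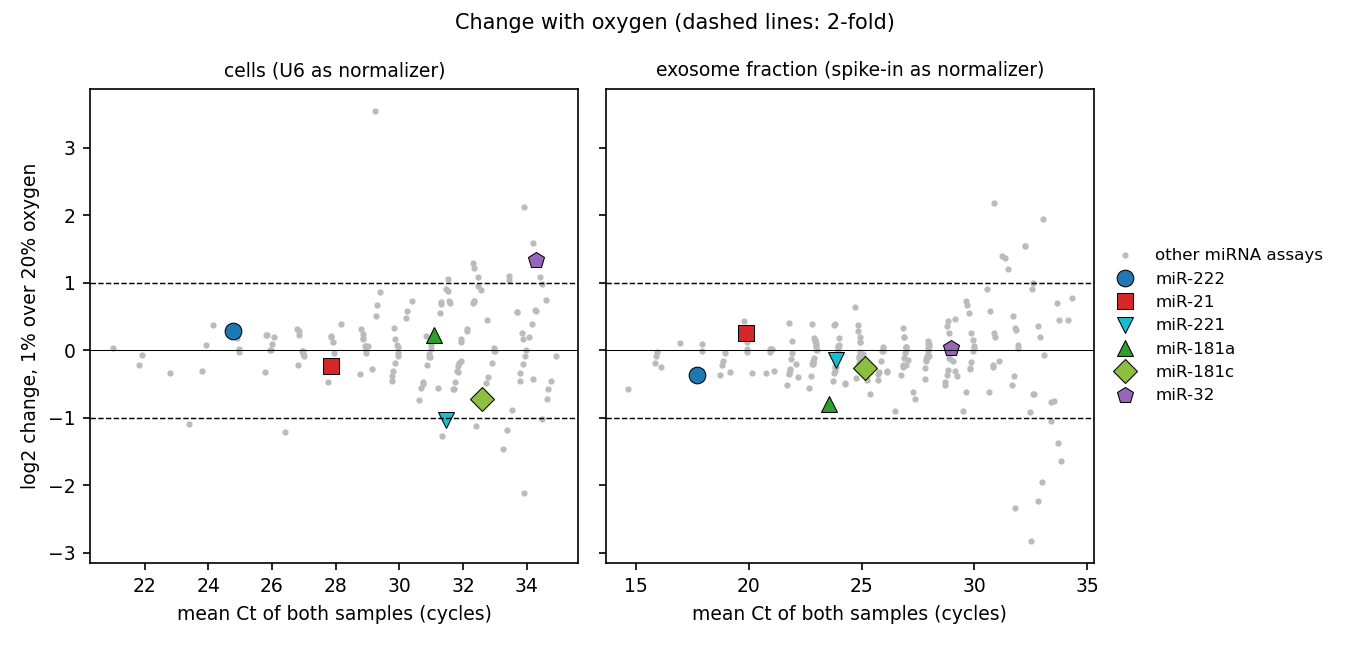
Log2 change with oxygen (1% over 20%) against the mean Ct of both samples in cycles, for cells (left, U6 as normalizer) and the exosome fraction (right, spike-in as normalizer); grey points are the other miRNA assays, coloured symbols the 6 miRNAs, and dashed lines 2-fold. miR-32 (1.34) and miR-221 (-1.03) lie past the lines in cells, miR-32 at the far right where the grey points spread most, and none of the 6 lies past them in the exosome fraction.

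The response to hypoxia was then compared between the compartments, as the log2 change in the exosome fraction minus that in cells. Of the 6 miRNAs, 2 had a response at least 2-fold lower in the exosome fraction, miR-32 (-1.31) and miR-181a (-1.02), and none had one 2-fold higher. Of the 138 assays detected in all 4 samples, 10.1% were that much lower and 5.80% that much higher. The values of miR-32 and miR-181a ranked sixth and thirteenth lowest of 138. For miR-32 the difference comes from the cellular samples, where it stood near the ceiling, since its exosome change was 0.03. For miR-181a both compartments contribute, with 0.23 in cells and -0.79 in the exosome fraction.

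The other 4 lay within 2-fold, with miR-222 at -0.65, miR-181c at 0.45, miR-21 at 0.50 and miR-221 at 0.88. miR-21, miR-222 and miR-181a had opposite signs in the compartments. miR-221 and miR-181c were lower in hypoxia in both, with smaller changes in the exosome fraction (-0.14 and -0.27) than in cells (-1.03 and -0.72). The median difference of the 6 was -0.10 and that of the 138 was -0.17.

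No control RNA was measured in both compartments, because U6 stood at the ceiling in the exosome fraction and the spike-in at the ceiling in cells. The compartments were therefore set side by side with every sample centred on its median Ct over the 138 shared assays, which gives relative and not absolute levels. Only exosome products were pre-amplified, and a centre per sample does not remove pre-amplification that differs between assays. Whether the assays pre-amplify equally was not tested. None of the 6 was 4-fold or more above or below cells in both oxygen conditions, against 2.90% of assays above and 16.7% below. Apart from miR-32, the 6 lay on the higher side of the assays as a whole: in normoxia and in hypoxia alike, 5 of the 6 were above the median of the 138, which was -0.44 and -0.83.

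miR-21 had a log2 value of 0.83 in normoxia and 1.24 in hypoxia (1.78-fold and 2.36-fold higher in the exosome fraction), and its mean over both, 1.04, was the fifteenth highest of 138. miR-221 had 0.24 and 1.03, and miR-181c 0.28 and 0.64. These 3 were higher in the exosome fraction in both oxygen conditions with the median Ct, the mean Ct or miR-16 as centre. All of these centres share the limit of unequal pre-amplification. miR-181a had 1.13 in normoxia and 0.02 in hypoxia, where the sign turned with miR-16 as centre (-0.05). miR-222 had 0.45 and -0.30, and its hypoxic value turned to 0.63 with the mean Ct as centre.

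miR-32 was the only one of the 6 with a lower relative level in the exosome fraction under both conditions, at -0.97 in normoxia and -2.37 in hypoxia. It was also below 0 with the mean Ct or miR-16 as centre. The cellular values are those at Ct 34.96 and 33.61. An assay at 35 lies 4.09 (normoxia) and 4.03 (hypoxia) cycles above the median of the cells. In the exosome fraction miR-32 lay 5.01 cycles above the median in both oxygen conditions. Any detected level in cells therefore gives a value below 0 with the median Ct as centre. The same holds with the mean Ct or miR-16 as centre, so the direction was fixed in advance by the ceiling. Without any centring every one of the 6 is higher in the exosome fraction, by 4.61 to 8.22 cycles, a figure that holds the pre-amplification.

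**Figure D3:**
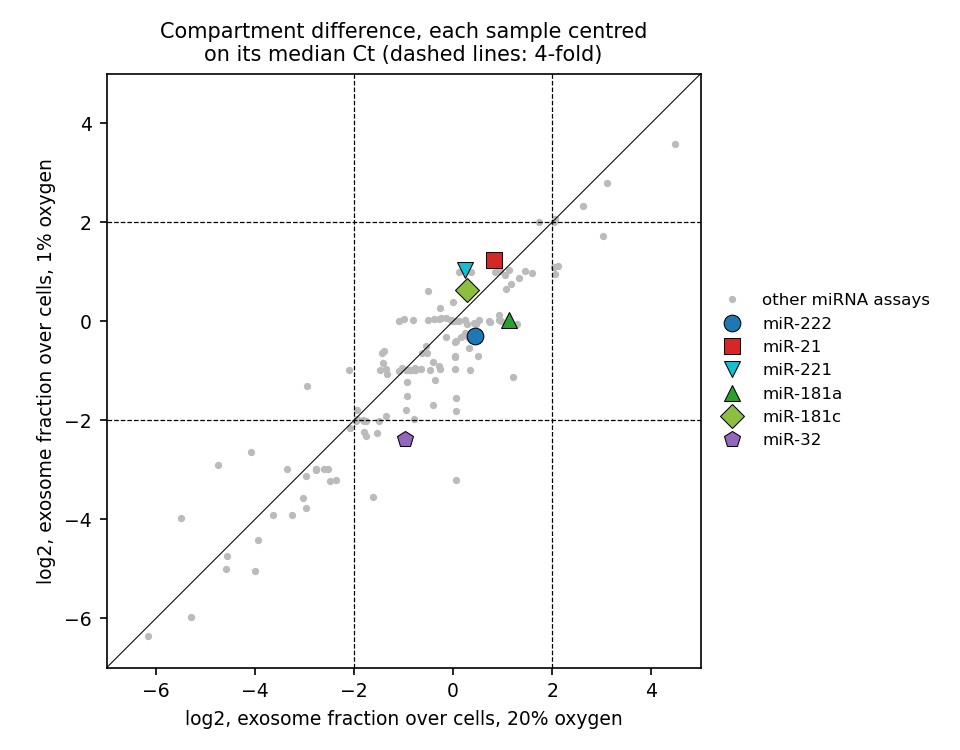
Log2 level in the exosome fraction over cells at 20% oxygen (horizontal) and 1% oxygen (vertical), each sample centred on its median Ct, for the 138 assays detected in all 4 samples; coloured symbols are the 6 miRNAs, grey points the other assays, the solid line marks equal values and dashed lines 4-fold. miR-21 lies at 0.83 and 1.24 and miR-32 at -0.97 and -2.37, and none of the 6 is past 4-fold in both directions of the plot.

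The assays that share a seed with miR-21 and miR-32 gave a measure that needs no normalizer, the Ct gap within a sample. miR-590-5p, which shares only the seed with miR-21 and is made from a gene within EIF4H on chromosome 7, had Ct 28.97 and 28.96 in cells and 22.80 and 22.96 in the exosome fraction. It trailed miR-21 by 1.22 cycles in normoxic and 0.98 in hypoxic cells, and by 2.83 and 3.20 cycles in the exosome samples. The gap was thus wider in both exosome samples than in both cell samples. Only exosome products were pre-amplified, and whether the 2 assays pre-amplify equally was not tested.

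miR-32 also trailed the members of its seed group further in the exosome fraction, but the ceiling in cells fixed that direction in advance. With miR-92a at 26.97 and 26.98 and miR-25 at 29.58 and 29.96 in cells, no detected miR-32 could trail as far there. Behind miR-92a, a miR-17-92 cluster product, it stood 7.99 and 6.63 cycles in cells and 11.01 and 11.07 in the exosome fraction. Behind miR-25, from the cluster within MCM7, it stood 5.38 and 3.65 cycles in cells and 8.08 and 8.03 in the exosome fraction. The gap between miR-25 and miR-92a, for which the ceiling set no such direction, ran from 2.62 to 3.04 cycles over the 4 samples. In every sample miR-92a had the lowest Ct of the seed group (26.97, 26.98, 17.97 and 17.93) and miR-32 the highest of its detected members. With oxygen, miR-92a had a log2 change of -0.02 in cells and 0.10 in the exosome fraction and miR-25 by -0.38 and -0.02, so neither was past 2-fold where miR-32 was.

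**Figure D4:**
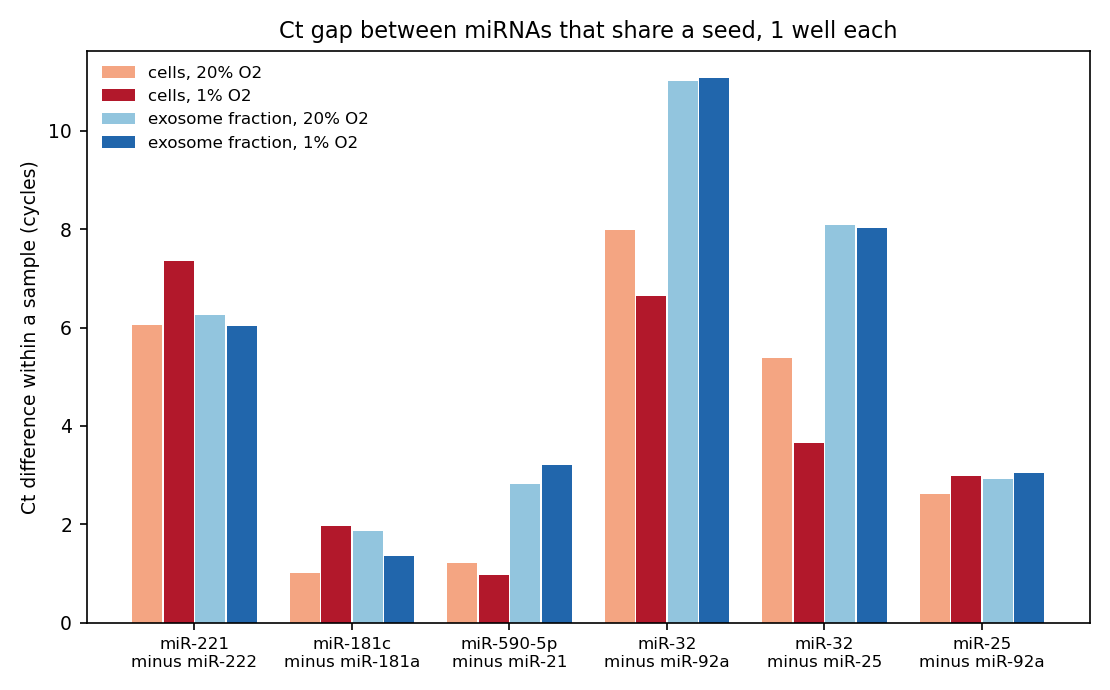
Ct gap in cycles between miRNAs that share a seed, within each sample (bars, 1 well per miRNA), for 6 pairs; light and dark red bars are cells at 20% and 1% oxygen, light and dark blue bars the exosome fraction at 20% and 1%. The gap of miR-221 to miR-222 is widest in hypoxic cells (7.36), and that of miR-25 to miR-92a stays between 2.62 and 3.04. The gaps of miR-590-5p to miR-21 and of miR-32 to miR-92a are wider in both exosome samples. For miR-32 the ceiling in cells allowed no other direction.

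The patterns most like those of the 6 were sought among the 138 assays, by the largest absolute difference in median-centred Ct over the 4 samples. miR-221 had the closest match, miR-197, within 0.24 cycles in all 4 samples. miR-197 had a log2 change of -1.27 in cells and -0.30 in the exosome fraction. Next came miR-484 for miR-222, within 0.41 cycles, with changes of 0.02 and -0.01. For miR-181a it was let-7c (within 0.80 cycles), for miR-181c miR-28-3p (0.88), for miR-32 miR-193a-3p (0.97) and for miR-21 miR-186 (1.24). The second nearest assays were miR-27b for miR-221 (0.72), miR-200a for miR-181a (0.83), miR-183 for miR-181c (0.94), miR-212 for miR-32 (0.99), miR-146a for miR-222 (1.24) and miR-138 for miR-21 (1.26). None of the nearest assays was a member of the same seed group. Both assays nearest to miR-21 were below it in the exosome fraction relative to cells, miR-186 at -0.96 and -0.98 and miR-138 at -0.93 and -1.23, so the nearest assays to miR-21 did not share its higher level there.

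Other miRNAs tied to myeloma were taken as context. Of 9 reported as raised, from the miR-17-92 and miR-106b-25 clusters, all were measured in both compartments, and only miR-19a was past 2-fold, lower in hypoxic cells (log2 change -1.09), with a list median of -0.07 in cells and -0.19 in the exosome fraction. That is 1 of 9 lower in cells, against 6.12% of all assays measured there, and 0 of 9 in the exosome fraction, against 7.39%. Those of lowest mean Ct were miR-19b (0.03 in cells and -0.57 in the exosome fraction), miR-17 (-0.07 and -0.08) and miR-20a (-0.34 and -0.19). Of 7 reported as low or growth-limiting, 5 were measured in both cell samples, with a median of 0.58. Among these miR-194 was past 2-fold, higher in hypoxic cells (2.13, with Ct 34.97 in normoxia and 32.84 in hypoxia), which is 1 of 5 against 7.48% of all assays, while miR-16 stood at -0.31, miR-34a at 0.48 and miR-29b at 0.58. miR-15a was detected in normoxic cells only, at Ct 30.10, and miR-215 in both hypoxic samples only, at 33.98 in cells and 28.07 in the exosome fraction. In the exosome fraction the 5 measured ones lay between -0.11 and 0.12, with none past 2-fold. With so few assays per list, these counts are not set apart from the shares over all assays.

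The position of the Ct values within a cycle touches several of these values. Of 757 detected Ct values over the 4 samples, 480 (63.4%) lay within 0.1 of a whole cycle, where an even spread would put 20%, and 422 (55.7%) had a fraction of 0.9 or more. Among the 24 values of the 6 miRNAs, 14 lay there. Both cellular values of miR-221 (30.95 and 31.97) were among them, as were both exosome values of miR-32 (28.98 and 29.00). For miR-181a the hypoxic value of each compartment was (30.97 and 23.96) and the normoxic one was not (31.20 and 23.12). Of the 8 U6 wells in cells, 2 lay within 0.1 of a whole cycle. The part of this clustering in the changes with oxygen was not tested; a change between values so placed comes in steps of about 1 cycle or about 0.

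**Figure D5:**
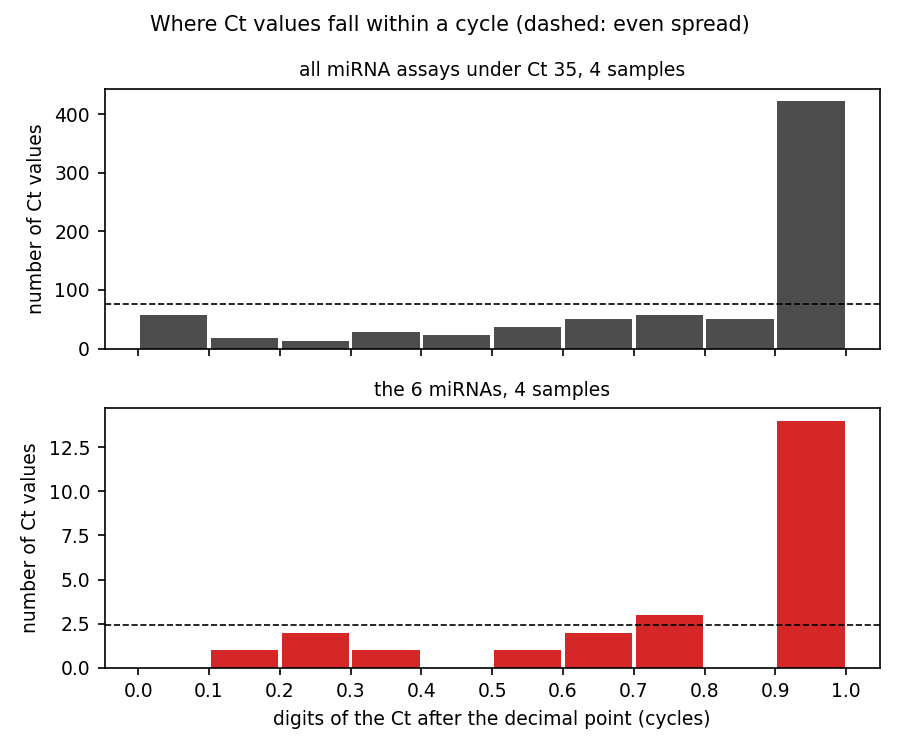
Number of Ct values by their digits after the decimal point, in steps of 0.1 cycle, for all detected miRNA assays (top, 757 values) and for the 6 miRNAs (bottom, 24 values), over the 4 samples; the dashed line is an even spread. The last step holds 422 of the 757 values and 14 of the 24.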

How the data were processed

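TaqMan array cards (Human TaqMan miRNA Arrays A, run on a 7900HT cycler) were read in 4 samples, 1 per group. The authors deposited Ct values per well, not normalized, and a table of fold values, the ratio of hypoxia over normoxia from Data Assist software version 3.1, per the series' design text. No genome build belongs to the assays. How the value 35 was set is not stated in the labels. A Ct has no read depth behind it, and the number of wells and samples, 1 each, limits the precision.

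The log2 values of change were calculated in Python 3.11.15 with pandas 2.3.3 as the negative difference in normalized Ct, normalizing cells to the mean of 4 U6 wells and exosome samples to the ath-miR159 spike-in, over assays under 35 in both samples. The thresholds were 2-fold with oxygen and 4-fold between compartments. The arithmetic of the change was checked on simulated Ct values with known changes, the noise of the U6 wells, no ceiling and the true normalizer. This check does not bear on noise near Ct 35 or on the choice of normalizer. RefSeq tables (GRCh38.p14) gave sequences and neighbouring genes only; names of 326 of the 377 assays matched.

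The miRNAs and lists were chosen with earlier results of these data known. Named besides the 6 are assays on the card with the same bases 2 to 8, the 2 assays nearest in pattern to each, controls, and list members past 2-fold or among the 3 of lowest mean Ct; miR-15a and miR-215 were named after their values were seen, as was the 1-cycle window of similar Ct chosen. Alternatives were other normalizers, centres, detection limits and thresholds.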

Additional observations from a re-analysis of the deposited data

Results flagged for a closer look

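For 3 of the 6 miRNAs the change with oxygen had opposite signs in the cells and in the exosome fraction; with 1 sample per group this difference was not tested. miR-21 was lower in hypoxic cells and higher in the hypoxic exosome fraction, a difference of 0.50 on the log2 scale. miR-222 went the other way, at -0.65, and so did miR-181a, at -1.02. The signs were opposite with each of the 24 pairs of a cellular and an exosome normalizer that were tried for these 3. Most of the cellular normalizers were U6 wells in different combinations, so these pairs are not separate checks. The single changes of miR-21 (-0.24 and 0.26) and the cellular changes of miR-222 (0.29) and miR-181a (0.23) are of about the size of the spread of a difference between U6 wells (0.194). With RNU44 and RNU48 as normalizer the cellular changes of miR-222 and miR-181a were 0.14 and 0.08, below that spread, and that of miR-21 was -0.38.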

How the results depend on the processing

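The count of miRNAs past 2-fold with oxygen in cells, 2, was 1 with the median Ct as normalizer and also over assays with Ct under 32 in both, and ran from 1 to 2 when each U6 well was left out. The call lost was that of miR-221 with the normalizers and that of miR-32 with the Ct limit, which it does not meet in either sample. At 1.5-fold the count in cells was 3, with miR-181c as a second lower miRNA, and in the exosome fraction the count of 0 became 1 (miR-181a). The count of 2 responses that differed 2-fold between compartments was 1 with Ct under 32 in all 4 samples (miR-181a). The count of 0 miRNAs 4-fold apart between compartments became 6 without centring, where miR-32 in hypoxia turned to 4.61; it stayed at 0 with the other centres, one of which, the median of the assays' differences, was chosen after seeing the data. A new normalizer shifts all 6 miRNAs by the same amount, so the 54 recomputed log2 changes with oxygen are not separate checks. Of these, 48 moved by less than 0.194, and the other 6 were those with the median Ct in the exosome fraction. The shifts in cells, the largest of which was -0.15, were too small to turn the sign of a change past 2-fold. RNU44 and RNU48 shifted all cellular changes by -0.15, the median Ct those of the exosome fraction by 0.20, and the mean Ct as centre the compartment values by 0.66 in normoxia and 0.93 in hypoxia. Leaving out a replicate was not possible with 1 sample per group, and no paired analysis was possible because no group has a second sample. Signal next to the ceiling limits miR-32 in cells.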
